A study of Homo sapiens with 3 samples.

Results

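CTCF and CTCFL are a pair of paralogous genes that encode zinc finger proteins with closely similar DNA-binding regions. They were found by symbol in the gene annotation of the deposited tables, where each name had a single entry (CTCF, ENSG00000102974; CTCFL, ENSG00000124092), so the members are 2 of 32738 genes. Their RNA was read in the human neuroblastoma cell line Kelly, whose MYCN gene is amplified and whose ALK receptor carries an activating mutation, at 3 levels of response to the ALK kinase inhibitor TAE684. The vehicle DMSO was given to the sensitive cells, 500 nM TAE684 to the intermediate resistant cells and 1 µM TAE684 to the fully resistant cells. All 3 cultures shared the same line, medium and serum, and each state was represented by 1 droplet library made with 10x Genomics 3′ chemistry. The effects of resistance, of the drug present at harvest and of the culture itself cannot be told apart, no difference below has a replicate check, and no test was run or p-value computed. Whether each state was a clone or a mixed population is not given in the sources used here.

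CTCF is present in nearly all cell types. It binds insulators and the borders of chromatin domains, where it stops the cohesin ring as that ring extrudes DNA loops, and at imprinted loci its binding depends on DNA methylation. CTCFL, also called BORIS, is normally made in male germ cells, can occupy many of the same DNA sites as CTCF, and differs from CTCF in the protein regions outside the zinc fingers. In most other tissues its gene is silent with a methylated promoter, and it is counted among the cancer-testis genes because some tumours express it.

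The sequences just upstream of the annotated transcription starts are shown because CpG dinucleotides, which carry DNA methylation, are set in capitals and the paralogs differ in how many they hold. They come from RefSeq (GRCh38.p14, whereas the deposited counts were made on hg19), run 5′ to 3′ on the gene's own strand, and cover the part of the 250 bases before each start that lies in no UTR annotated in GENCODE release 29. The stretches are chr16:67562276-67562406 (plus strand) for CTCF, chr20:57524868-57524947 (minus strand) for CTCFL start 1, the start nearest the coding sequence, and chr20:57525653-57525902 (minus strand) for CTCFL start 3, the outermost one.
CTCF: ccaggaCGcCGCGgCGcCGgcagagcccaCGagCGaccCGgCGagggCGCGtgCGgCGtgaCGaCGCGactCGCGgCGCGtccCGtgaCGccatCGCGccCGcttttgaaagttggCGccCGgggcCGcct
CTCFL start 1: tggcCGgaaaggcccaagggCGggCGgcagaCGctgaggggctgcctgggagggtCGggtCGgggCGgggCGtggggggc
CTCFL start 3: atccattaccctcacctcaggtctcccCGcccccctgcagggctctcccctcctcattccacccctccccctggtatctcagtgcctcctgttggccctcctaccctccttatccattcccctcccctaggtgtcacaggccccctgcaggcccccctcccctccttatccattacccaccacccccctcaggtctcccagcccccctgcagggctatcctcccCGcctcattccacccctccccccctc
Over the full 250 bases, the CTCF window held 39 CpG, more than 97.3% of 35116 RefSeq promoter windows of the same length, with 1.13 times the number that its C and G content would give. The windows of CTCFL starts 1, 2 and 3 held 15, 7 and 2 CpG, against a median of 11 over all windows. CTCF thus sits at a CpG-dense start, and the CTCFL starts lie near or below the middle of the range. The letters CCCTC, searched on both strands, occurred 4 times before CTCF and 6, 8 and 11 times before the CTCFL starts, and 66.6% of all windows held them at least once. DNA methylation was not measured, and reads from the 3′ end of RNA do not tell which start was used.

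The libraries were alike in depth. Called cells had at least 5000 UMIs (distinct captured RNA molecules), at least 500 detected genes and at most 20% mitochondrially encoded UMIs. They numbered 5415, 6288 and 6331 in the sensitive, intermediate and fully resistant library, with medians of 16008, 15660.5 and 16014 UMIs and totals of 95119772, 102449567 and 106163582 UMIs. All 10 neuroblastoma line markers were measured in every library, at a summed 3617, 4362 and 2484 CPM (counts divided by the library's total and scaled to 1000000 UMIs). The 9 germ cell markers, DDX4 and DAZL among them, summed to between 0.210 and 0.410 CPM, with 6 or 7 of the 9 at 0 in each library. The blood cell markers summed to at most 0.781 CPM and those of endothelium and epithelium to at most 1.09 CPM. The 6 fibroblast markers summed to 19.8, 14.8 and 17.6 CPM from sensitive to fully resistant, most of it PDGFRB (17.4, 11.5 and 10.2 CPM). COL1A1 (2.04, 3.05 and 5.36 CPM) and LUM (0.200, 0.234 and 1.49 CPM) were higher in fully resistant cells, COL1A2 was at 0 in the other libraries, and their part in the results was not tested. Between 38 and 62 barcodes were called as cells in both libraries of a pair, which is at most 1.14% of either library. Without these barcodes the log2 ratios of CTCFL (7.78 for fully resistant over sensitive) and CTCF (-0.56) differed little from those below.

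CTCFL RNA was near absent in sensitive cells, scarce in intermediate resistant cells and abundant in fully resistant cells. It made up 55 UMIs in sensitive cells, or 0.578 CPM (95% interval 0.436 to 0.753), 345 UMIs in intermediate resistant cells, or 3.37 CPM (3.02 to 3.74), and 13669 UMIs in fully resistant cells, or 129 CPM (127 to 131). Every interval here covers counting error only. These 3 levels were in the order of the TAE684 dose, their intervals did not overlap, and by CPM the gene ranked 13098th, 9938th and 1000th among all genes. The fully resistant level was 223-fold the sensitive one (171 to 296) and 38.2-fold the intermediate one (34.4 to 42.7), and the intermediate level was 5.82-fold the sensitive one (4.37 to 7.89).

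Set against all genes, CTCFL had the 13th highest ratio of 5342 genes between the fully resistant and sensitive libraries, where 5.47% of genes were at least 2-fold higher (counting genes that reached 20 CPM in either library). It had the 16th highest of 5165 between the fully and intermediate resistant libraries, where 4.53% were higher by that rule. It was not among the 5045 genes so compared between the intermediate resistant and sensitive libraries, because neither level reached 20 CPM (1.74% of those genes were higher by that rule). Scaling by library totals, by totals without mitochondrially encoded and ribosomal protein genes, by trimmed means (TMM) or by median ratios left the first of these ratios between 209-fold and 223-fold.

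CTCF RNA was lower in both resistant libraries than in the sensitive one, by a much smaller factor. It made up 6392 UMIs in sensitive cells, or 67.2 CPM (65.6 to 68.9), 4853 in intermediate resistant cells, or 47.4 CPM (46.0 to 48.7), and 4819 in fully resistant cells, or 45.4 CPM (44.1 to 46.7). The sensitive level stood apart, and the intervals of the resistant libraries overlapped. CTCF was 1.48-fold lower in fully resistant than in sensitive cells (1.43 to 1.54; log2 ratio -0.57) and 1.42-fold lower in intermediate resistant than in sensitive cells (1.37 to 1.47; log2 ratio -0.50). Neither passed 2-fold, by which 5.56% and 3.61% of genes were lower. With a limit of 1.2-fold, chosen after the values were seen, CTCF was lower in both comparisons, as were 22.8% and 27.4% of all genes tested. It was 674th from the lowest ratio of 5342 genes in the fully resistant comparison and 665th of 5045 in the intermediate one.

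Between the resistant libraries CTCF differed little, at a log2 ratio of fully over intermediate resistant of -0.06 (1.04-fold lower, 1.00 to 1.09), and it was past neither limit (2.83% of genes were 2-fold lower, 13% were 1.2-fold lower). The median log2 ratio of all genes in this comparison was 0.17, and with TMM factors, which bring that median to -0.01, the CTCF ratio was -0.23. Of the genes past 2-fold there, 61.6% were higher in fully resistant cells, against 43.6% with TMM factors, 49.9% with median ratios and 49.4% without mitochondrially encoded and ribosomal protein genes. The plot of levels by library sets the paralogs side by side.

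**Figure D1:**
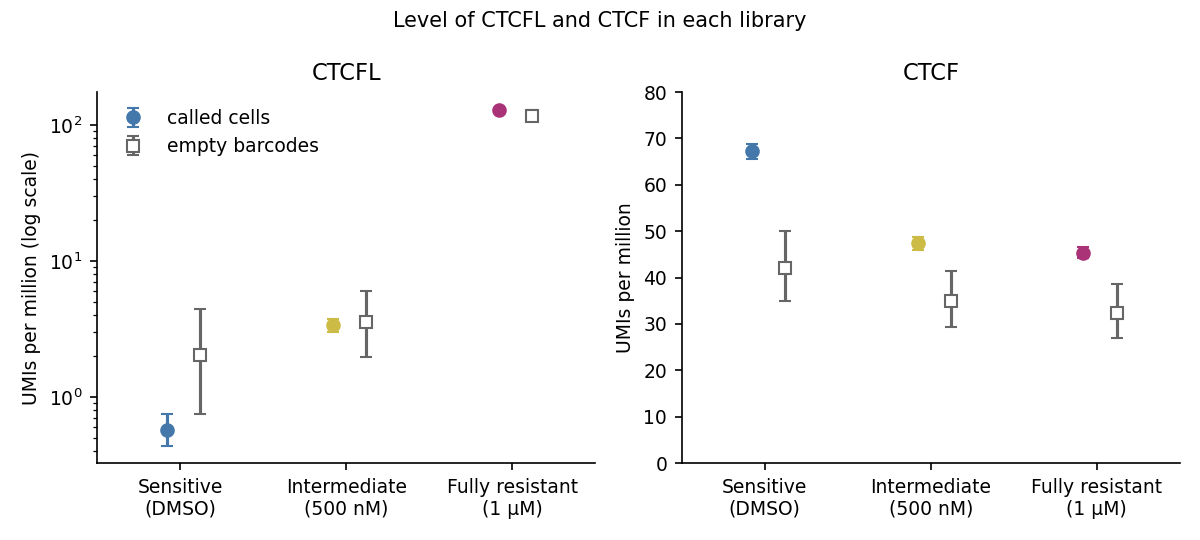
Levels of CTCFL and CTCF in the 3 libraries, as CPM (log axis for CTCFL, linear axis for CTCF) summed over called cells and over barcodes with 2 to 100 UMIs, with 95% Poisson intervals that cover counting error only (1 library per state). CTCFL spans 0.578 to 129 CPM in cells, whereas CTCF lies between 45.4 and 67.2 CPM.

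Both genes are counted once per molecule at the 3′ end, so their CPM can be set beside each other without a length correction, although capture may differ between transcripts. CTCFL gave 0.853% of the UMIs of the pair in sensitive cells (0.643 to 1.11), 6.64% in intermediate resistant cells (5.98 to 7.35) and 73.9% in fully resistant cells (73.3 to 74.6). The paralog that was the minor transcript in the first of these states was the major one in the last. In the fully resistant library 63.4% of cells held more CTCFL than CTCF UMIs and 13.9% held more CTCF. In the sensitive library 0.388% held more CTCFL and 62.2% more CTCF, and in the intermediate resistant library 2.58% and 48.3%.

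The share of cells with CTCFL followed its level. At least 1 CTCFL UMI was seen in 54 sensitive cells (0.997%, 0.750 to 1.30), 324 intermediate resistant cells (5.15%, 4.62 to 5.73) and 5001 fully resistant cells (79.0%, 78.0 to 79.99). With every cell thinned to 5000 UMIs, so that depth is equal, the shares were 0.290% (0.165 to 0.472), 1.65% (1.35 to 2.001) and 44.7% (43.5 to 46.0). A CTCFL UMI was thus found in a minority of cells in 2 libraries and in most cells of the third at full depth. For CTCF the full-depth shares were 62.5% (61.2 to 63.8), 49.9% (48.7 to 51.2) and 49.6% (48.4 to 50.9), and the thinned shares were 27.7%, 20.6% and 19.8%.

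Within the fully resistant library most cells held CTCFL. Its median was 2 UMIs per cell, the 90th percentile 5, the 99th percentile 9 and the maximum 14. No CTCFL UMI was seen in 1330 cells (21.0%), 1 UMI in 1594 (25.2%), 2 in 1238 (19.6%), 3 to 5 in 1720 (27.2%), 6 to 10 in 423 (6.68%) and 11 or more in 26 (0.411%). The tenth of cells with most CTCFL held 30.5% of its UMIs. A share of empty cells is expected from sampling alone: after thinning, 55.3% of cells had no CTCFL UMI, where a Poisson distribution of the same mean (0.644 UMIs) gives 52.5%. The squared coefficient of variation beyond Poisson was 0.284 for CTCFL, against a median of 0.116 over 4883 genes with a thinned mean of at least 0.1, and 81.4% of those genes had a lower value. The values of CTCFL and CTCF are expectations over all thinnings, whereas those over all genes come from 1 random draw. CTCF was at 0.206 in that library, at 0.164 in the intermediate resistant and at 0.141 in the sensitive library, where the medians over genes were 0.125 and 0.0823. In the same order, CTCF was above 72.0%, 61.6% and 68.4% of genes. Its zeros were close to the Poisson share in all 3 (72.3% against 71.8%, 79.4% against 79.1% and 80.2% against 79.9%, from sensitive to fully resistant).

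**Figure D2:**
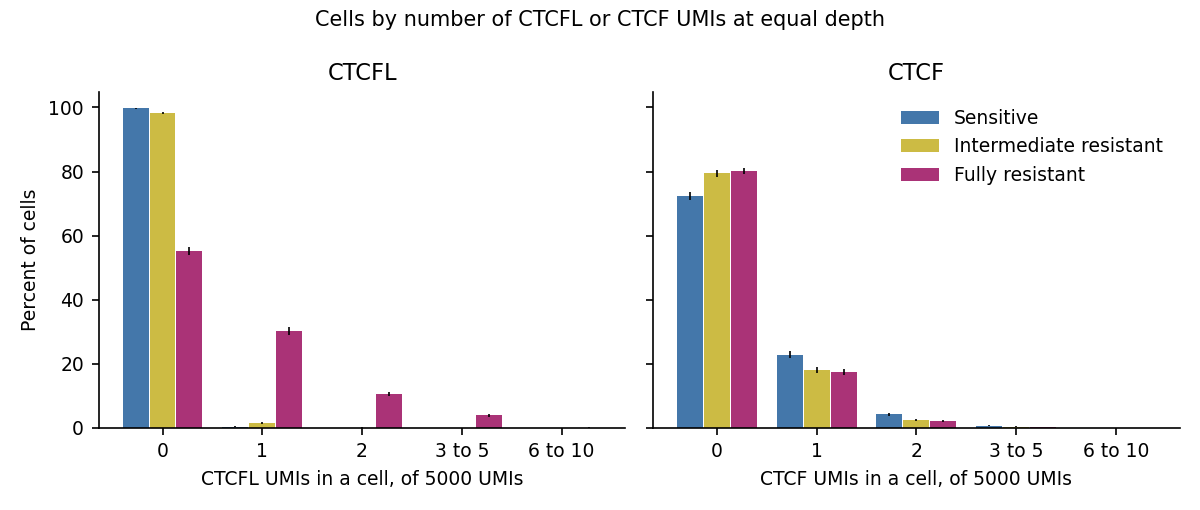
Share of called cells (percent) by number of CTCFL or CTCF UMIs per cell, with every cell thinned to 5000 UMIs, for the 3 libraries. At this depth 55.3% of fully resistant cells have no CTCFL UMI, and nearly all sensitive (99.7%) and intermediate resistant (98.3%) cells have none.

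The scarce CTCFL UMIs of the other libraries lay singly in their cells. Of the 54 sensitive cells with any, 53 had 1 UMI and 1 had 2. Of the 324 intermediate resistant cells, 305 had 1, 18 had 2 and 1 had 4. No cell of either library reached the 99th percentile of fully resistant cells.

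The level in cells was compared with that in barcodes of 2 to 100 UMIs, which hold mainly free RNA. CTCFL there was at 2.03 CPM (0.746 to 4.42, from 6 UMIs) in the sensitive, 3.58 CPM (1.96 to 6.01, from 14 UMIs) in the intermediate resistant and 117 CPM (106 to 128, from 453 UMIs) in the fully resistant library. The level in sensitive cells was below that in these barcodes, with intervals that just met, the level in intermediate resistant cells lay inside their interval, and the level in fully resistant cells was slightly above theirs. The composition of free RNA thus does not separate cells with CTCFL from cells without it in any of the 3 libraries, and single cells with 1 CTCFL UMI are not read as expressing the gene. The amount of free RNA in a called cell was not measured. If it were 100 UMIs of this mix, an assumed value, the cells would carry 1.10, 2.25 and 73.8 CTCFL UMIs in that order. Observed were 55, 345 and 13669, and the part of free RNA in them was not tested. CTCF in the same barcodes was at 42.0, 35.0 and 32.4 CPM, below its level in cells in each library.

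CTCFL UMIs were also counted on barcodes used by fully resistant cells, where RNA assigned to the wrong library would fall. None of the 62 CTCFL UMIs in the whole sensitive library lay on such a barcode (upper limit 5.78%), where 1.17% of all its UMIs did. In the intermediate resistant library 3 of 369 did (0.813%, 0.168 to 2.36), where 0.873% of all its UMIs did. Whether the scarce CTCFL UMIs came from another library was not tested.

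Cells with CTCFL in these libraries were also read for 10 other genes that were at least 10-fold higher in fully resistant than in sensitive cells, at 50 CPM or more. They include the neurogenic factors NEUROD1 and NEUROD4 and the neurofilament gene NEFM. In sensitive cells the 10 genes summed to 121 CPM (119 to 124) where CTCFL was at 0 and to 124 CPM (104 to 146) in the cells with 1 CTCFL UMI. In intermediate resistant cells they summed to 102 CPM (99.8 to 104) at 0, 108 CPM (99.01 to 117) at 1 and 83.4 CPM (55.0 to 121) at 2 CTCFL UMIs. CTCFL-bearing cells of both libraries were therefore not higher in these genes, beyond counting error, than the other cells of their library. Fully resistant cells had 1460 CPM where no CTCFL UMI was seen. The gap between the fully resistant and sensitive libraries was set by the choice of the genes and is not a result. In fully resistant cells the sum was 1531, 1650 and 1943 CPM with 1, 2 and 3 or more CTCFL UMIs, while median depth went from 14355.5 UMIs in cells without CTCFL to 18169 in the last class. The part of depth in that order was not tested.

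The paralogs were found together in single fully resistant cells about as often as the product of their shares gives. After thinning to 5000 UMIs, 9.32% of cells held both (8.62 to 10.1), where the product was 8.84%, a ratio of 1.05 (0.975 to 1.14). CTCF was seen in 20.8% of the cells with CTCFL (19.4 to 22.4) and in 18.9% of those without (17.6 to 20.2). These intervals overlapped, and CTCF was not lower in the cells that held CTCFL. At full depth 40.9% of cells held both against a product of 39.2%, and CTCF was seen in 51.8% of cells with and 41.4% of cells without CTCFL, a comparison in which deep cells detect both genes more often.

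CTCF was also summed over cells grouped by their CTCFL count after 1 random thinning. It was at 43.6 CPM (41.9 to 45.3) in the 3453 cells with 0, 46.4 (44.1 to 48.8) in the 1925 with 1, 49.1 (45.2 to 53.3) in the 686 with 2 and 51.5 (45.1 to 58.6) in the 265 with 3 to 5 CTCFL UMIs. The values went up with CTCFL over these 4 groups, and their intervals overlapped. The remaining 2 cells had 6 or more CTCFL UMIs and 1 CTCF UMI between them (30.2 CPM, 0.765 to 168). Median depth differed by under 1% between the 4 groups.

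In the intermediate resistant library 0.315% of thinned cells held both, against a product of 0.341% (ratio 0.923, 0.563 to 1.43). In sensitive cells CTCF was seen at full depth in 63.0% of the 54 cells with CTCFL (48.7 to 75.7) and in 62.5% of the others. The intervals are wide in both, so a difference in CTCF detection with CTCFL was not detectable at these numbers of cells.

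**Figure D3:**
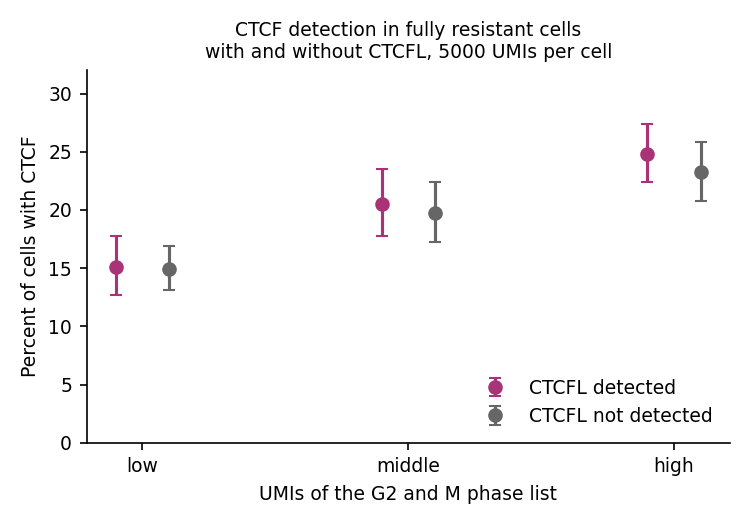
CTCF in fully resistant cells with and without CTCFL, as the percentage of thinned cells with a CTCF UMI in each class of G2 and M phase UMIs, with 95% intervals for counting error. Within a class the cells with and without CTCFL have overlapping intervals.

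CTCF in all 3 libraries, and CTCFL in the fully resistant one, were higher in cells with more RNA of G2 and M phase genes. Cells of all libraries were split by their UMIs of 50 G2 and M phase genes at 5000 UMIs per cell, with limits of 13 and 26 UMIs that divide the pooled cells into 3 classes of low, middle and high count. CTCF went from 50.2 CPM in low to 63.5 in middle and 81.9 in high sensitive cells, a ratio of high to low of 1.63 (1.52 to 1.75). The ratio was 1.77 (1.65 to 1.91) in intermediate resistant cells, from 34.8 to 61.8 CPM, and 1.71 (1.59 to 1.83) in fully resistant cells, from 32.6 to 55.7 CPM. The increase with G2 and M phase UMIs was thus of similar size in the 3 libraries.

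CTCFL in fully resistant cells went from 95.8 CPM in low to 127 in middle and 157 in high cells, a ratio of 1.64 (1.57 to 1.71), close to that of CTCF. In intermediate resistant cells it was level, at 3.33, 3.47 and 3.30 CPM (ratio 0.992, 0.756 to 1.30). In sensitive cells it was lower in high cells, at 0.288 CPM from 10 UMIs against 0.888 CPM from 19 UMIs in low cells (ratio 0.324, 0.135 to 0.733). The CTCFL increase with G2 and M phase UMIs was therefore seen in the library where the gene was abundant. The counting intervals of the 3 ratios did not overlap. With 1 library per state, whether the states differ in this respect was not tested.

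**Figure D4:**
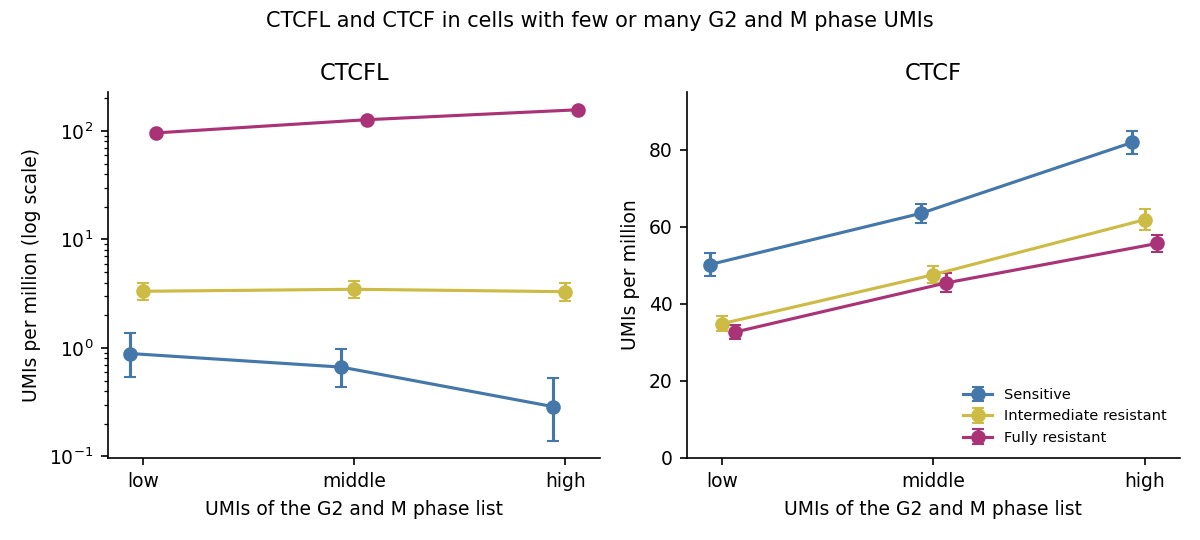
CTCFL and CTCF levels (CPM) in cells of low, middle and high G2 and M phase UMI count, by library, with 95% intervals for counting error. CTCF is higher from low to high cells in all 3 libraries, and CTCFL in the fully resistant one (95.8 to 157 CPM).

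High cells made up 34.0% of the sensitive, 28.9% of the intermediate and 36.9% of the fully resistant library. Within the low, middle and high classes CTCF was 1.54-fold, 1.40-fold and 1.47-fold lower in fully resistant than in sensitive cells, and 1.44-fold, 1.33-fold and 1.32-fold lower in intermediate resistant than in sensitive cells. The lower CTCF level of resistant cells was thus about as large within each class as in all cells. Of the 50 genes that set the classes, 11 were at least 1.5-fold higher in fully resistant than in sensitive cells and 0 were lower. By that rule 15.2% of all genes were higher and 14.7% lower. A class therefore need not hold cells of the same cycle state in each library. CTCFL was 108-fold (69.0 to 179), 191-fold (130 to 292) and 544-fold (295 to 1134) higher in fully resistant than in sensitive cells of these classes. The sensitive cells of a class held 10 to 26 CTCFL UMIs. Against intermediate resistant cells the ratios were 28.8 (24.0 to 34.8), 36.5 (30.4 to 44.3) and 47.5 (39.1 to 58.2), so they too were higher from low to high cells. Among fully resistant cells of a class, CTCF was seen in 15.1% of cells with and 14.9% without CTCFL in the low, 20.6% and 19.7% in the middle and 24.8% and 23.2% in the high class, and CTCFL itself in 36.5%, 44.7% and 52.6% of thinned cells.

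The genes whose counts varied most like CTCFL over the 6331 fully resistant cells were only weakly correlated with it. After thinning, Pearson's r was 0.17 for UBE2S, a ubiquitin-conjugating enzyme of mitotic exit, and between 0.12 and 0.13 for CKS1B, a cyclin-dependent kinase subunit, H2AFZ, a histone variant, SET, PTTG1 (securin), HMGB1, HMGN2 and RANBP1, against a median of 0.01 over 4882 genes. At the other end were the ribosomal protein genes RPL14 (-0.15), RPS3A, RPL10 and RPL11. For CTCF the highest values were 0.09 for UBE2C and ANP32E, and the lowest was -0.11 for RPL5. HMGN2, H2AFZ and CKS1B were among the 8 highest for both paralogs. All cells shared 1 library, values this small in sparse counts are a description, and thinned totals make abundant ribosomal genes trade off against the rest.

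Over the 3 libraries, the gene whose level was most like that of CTCFL was NEUROD4, at 0.0105, 2.98 and 85.2 CPM from sensitive to fully resistant (distance 0.395 between centred log2(CPM + 1) values, among 5422 genes). Also among the genes most like it were MYL1, RPRM, SLC25A48 and CLDN5, at distances of 1.04 to 1.15. RPRM had an intermediate level of 1.75 CPM between 0.0105 and 32.6 CPM. NEUROD4 and RPRM thus shared the stepwise order of CTCFL. CTCF had much closer neighbours: THAP7 at 71.8, 50.4 and 48.7 CPM (distance 0.00785), then GGA1, C9orf16, CYB5R3, TXN2 and CENPK. Likeness over 3 points is a description of these libraries.

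Genes next to each paralog on its chromosome were read as well, taking the 6 nearest on each side with at least 5 CPM in 1 library. Around CTCF on chromosome 16, 11 of 12 neighbours were lower in fully resistant than in sensitive cells, 10 of them by at least 1.5-fold, with a median log2 ratio of -0.79 that is below the -0.57 of CTCF itself. Among them were E2F4, a cell cycle repressor (33.6 to 21.2 CPM), CENPT, a kinetochore gene (23.9 to 14.7 CPM), THAP11 (51.9 to 30.8 CPM) and PARD6A, a polarity gene, with the lowest ratio (-1.17). Only TPPP3 was higher (log2 ratio 0.54). In intermediate resistant cells all 12 were lower than in sensitive cells, with a median of -0.59 against -0.50 for CTCF. The CTCF ratio was therefore nearer to 0 than the median of its neighbours in both comparisons, and over all genes at 5 CPM 14.7% and 12.2% were lower by 1.5-fold, with medians of 0.08 and -0.08. The gene copy number was not measured.

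Around CTCFL on chromosome 20 the neighbours did not share the size of its difference. In fully resistant against sensitive cells 9 of 12 were higher and 3 lower, with a median log2 ratio of 0.53 and a range from -1.49 (BMP7, a bone morphogenetic protein) to 0.89 (AURKA, the mitotic kinase Aurora A), against 7.80 for CTCFL. The nearest measured genes, RBM38 on one side and PMEPA1 on the other, had 0.83 and -0.18. Of the 12, 6 were at least 1.5-fold higher, in a comparison where 15.2% of all genes were. In intermediate resistant against sensitive cells the median was -0.02, 0 of 12 were higher by 1.5-fold and 3 were lower (FAM210B, PMEPA1 and BMP7, at -1.08, -0.65 and -0.59), where 5.83% and 12.2% of all genes were. The large CTCFL difference was thus not matched by any of the 12.

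**Figure D5:**
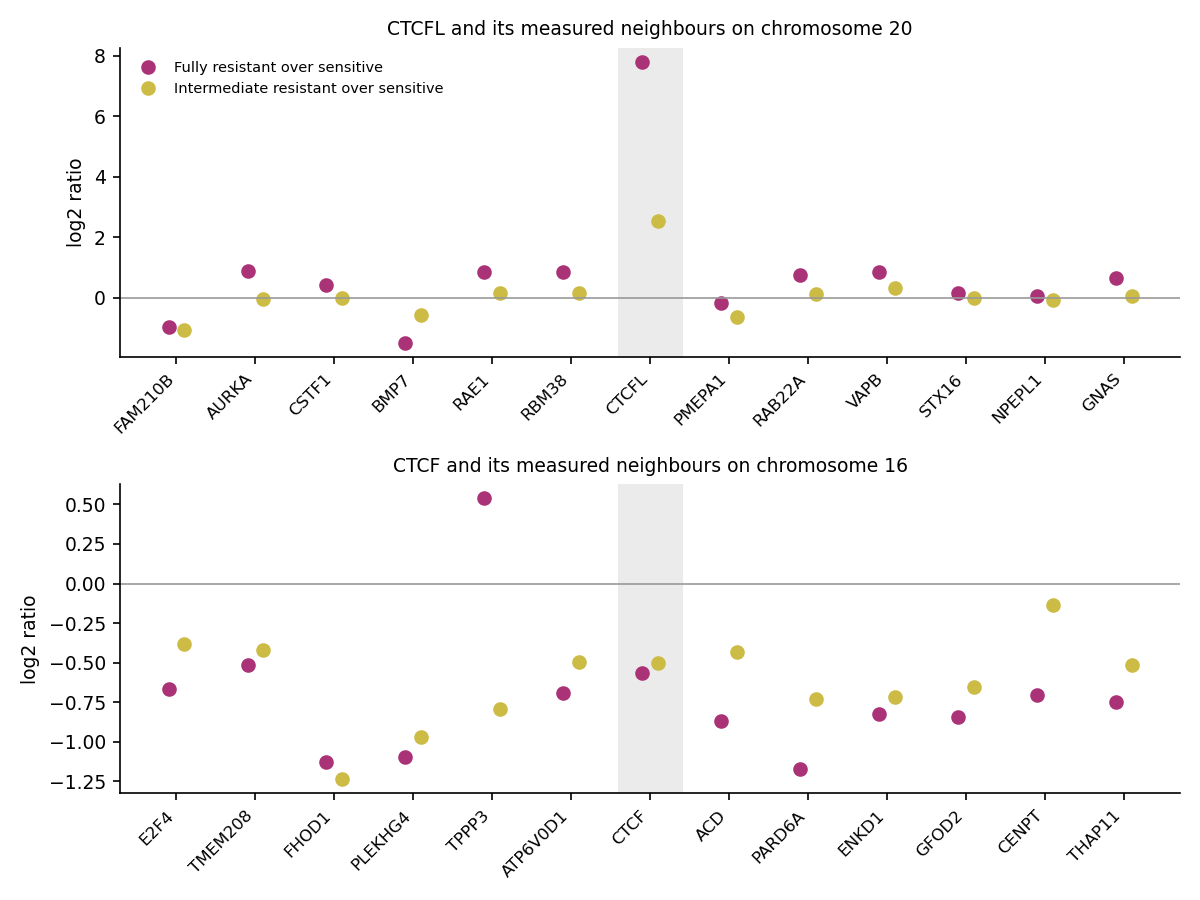
log2 ratio of fully resistant over sensitive and of intermediate resistant over sensitive cells for CTCFL, CTCF and the 12 measured genes nearest to each, in chromosomal order. Neighbours of CTCF lie mostly below 0 (median -0.79 in the fully resistant comparison), and neighbours of CTCFL lie between -1.49 and 0.89, far from CTCFL at 7.80.

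The genes of proteins that CTCF works with were read from lists. A gene was measured at 5 CPM or more in 1 of the libraries compared and counted as higher or lower at 1.5-fold, and the medians are log2 ratios. By this rule 15.2% of all genes were higher and 14.7% lower in fully resistant than in sensitive cells, 5.83% and 12.2% in intermediate resistant than in sensitive cells, and 13.8% and 8.13% in fully than in intermediate resistant cells, so a count of 0 or 1 in a short list is near the background. Of 6 measured cohesin ring genes, none was counted in any comparison. RAD21, the ring's kleisin, was at 107, 94.3 and 125 CPM from sensitive to fully resistant. Of the STAG subunits, STAG2 was at 71.0, 85.4 and 88.8 CPM and STAG1 at 36.8, 46.7 and 37.6 CPM. Of 9 loading, release and acetylation genes, 1 was higher in fully resistant than in sensitive cells, the loader NIPBL, at 51.2, 47.8 and 83.0 CPM, which was also higher in fully than in intermediate resistant cells. The list medians were 0.18 and 0.04 in the fully resistant and 0.02 and -0.10 in the intermediate comparison, near the 0.08 and -0.08 of all genes.

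Of 12 proteins that bind with or beside CTCF, ZNF143 was higher in fully resistant than in sensitive cells (7.60 to 11.99 CPM) and PATZ1 was lower in intermediate resistant cells (29.3 to 19.2 CPM). The topoisomerase TOP2B was higher in fully than in intermediate resistant cells (43.0 to 72.4 CPM). Each is 1 of 12, against shares of all genes of 15.2%, 12.2% and 13.8%. The other partners were within 1.5-fold in every pair.

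Of 11 measured writers, readers and erasers of DNA methylation, 1 was higher in fully resistant than in sensitive cells, where 15.2% of all genes were. This was TDG, the thymine DNA glycosylase that excises oxidised methylcytosine, at 88.1, 112 and 197 CPM (2.24-fold). The maintenance methyltransferase DNMT1 was at 187, 158 and 210 CPM and the de novo enzyme DNMT3A at 56.1, 52.2 and 54.2 CPM, all within 1.5-fold. TET1, which oxidises methylcytosine, was lower in intermediate resistant than in sensitive cells (31.7 to 20.8 CPM). DNMT3B (2.73 to 5.84 CPM) and TDG were higher in fully than in intermediate resistant cells, and DNMT3B reached 5 CPM in the fully resistant library only. The shares of all genes were 12.2% lower and 13.8% higher in these comparisons.

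Germline genes linked to CTCFL in earlier work were mostly undetected or low: 3 of 16 reached 5 CPM. MAGEA3, a cancer-testis gene of the X chromosome that shares reads with near-identical copies, was at 1.39, 1.51 and 18.8 CPM (13.5-fold higher in fully resistant than in sensitive cells, 1 of 3 measured). It reached 5 CPM only in the fully resistant library, so it could not be counted as lower there. MAGEA1, at 38.0, 32.6 and 40.0 CPM, and PRAME, at 162, 121 and 142 CPM, were present in all 3 libraries and within 1.5-fold. CTCFL thus differed more than any of these 3.

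Imprinted genes near CTCF-bound control regions were often higher in the intermediate resistant library. Of 7 measured, 5 were higher there than in sensitive cells, where 5.83% of all genes were, and the median log2 ratio was 1.24. Of these 5, MEG3 and CDKN1C reached 5 CPM only in the intermediate library of this pair. They could thus be counted as higher but not as lower, and they also raise the median. Below the limit of 5 CPM, 2 genes went the other way from sensitive to intermediate resistant cells: PEG3 from 91 to 0 UMIs and NNAT from 8 to 0 UMIs. IGF2, a fetal growth factor, was at 456, 1250 and 550 CPM from sensitive to fully resistant, and DLK1, a Notch-related membrane protein, at 1005, 2374 and 1821 CPM. The noncoding RNA MEG3 was at 1.22, 8.28 and 13.9 CPM, KCNQ1OT1 at 178, 332 and 189 CPM, and the cell cycle inhibitor CDKN1C at 0.883, 5.73 and 3.86 CPM. IGF2, DLK1, KCNQ1OT1 and CDKN1C therefore had their highest level in the intermediate library, and MEG3 in the fully resistant one. MEG3 and DLK1 were also higher in fully resistant than in sensitive cells (2 of 6 measured, median 0.32, where 15.2% of all genes were higher). In this pair MEG3 reached 5 CPM only in the fully resistant library. Of 15 clustered protocadherin beta genes found, only PCDHB5 was measured, at 2.73, 2.51 and 8.47 CPM, and only the fully resistant level passed the limit. PCDHB16 was just below the limit, at 1.45, 1.42 and 4.99 CPM. PCDHB7 went the other way, from 26 UMIs in sensitive to 2 UMIs in fully resistant cells.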

How the data were processed

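The authors deposited whole-number UMI counts per gene and barcode, unnormalized and unfiltered, for 32738 genes and 737280 barcodes in each of 3 libraries. Per the submitters' processing notes, bcl2fastq and Cell Ranger were used on hg19; versions, and the treatment of reads that match several genes, are not given in the sources used here. No per-sample column was left unused (0 columns). CTCF and CTCFL, the gene lists and the settings were chosen with earlier results of these data known.

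Counts of called cells (at least 5000 UMIs, 500 genes, at most 20% mitochondrially encoded) were summed and divided by the library's total (CPM). The mitochondrial limit removed 0, 4 and 2 barcodes, and doublets were kept. Levels carry exact Poisson, ratios exact conditional Poisson and shares Clopper-Pearson 95% intervals. UMIs are counted once per molecule, and the intervals cover counting error only. With 1 library per state no test was run. Shares at 5000 UMIs and the variation of CTCF and CTCFL are the exact expectation over all random thinnings. G2 and M phase and S phase classes, correlations over cells, CTCF by CTCFL count and variation over all genes used 1 random draw.

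Besides the members, named genes were up to 4 members of each list with the greatest log2 ratio and at least 20 CPM, the 6 genes most alike over libraries, the 8 most and 4 least correlated over cells, and 6 neighbours on each side. Others, such as MAGEA3, MEG3, CDKN1C, ZNF143, PATZ1, DNMT3A, DNMT3B, TET1, TOP2B, PCDHB5 and the fibroblast markers, were named for passing a limit or for their role after their values were seen. Some genes that the rule covers are not reported here. The order of neighbours came from RefSeq (GRCh38.p14), used for order only. Ratios were tested on simulated data. Software was Python 3.11.15, numpy 2.4.6, scipy 1.17.1, pandas 2.3.3 and edgeR 4.0.16 for TMM factors.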

Additional observations from a re-analysis of the deposited data

Results flagged for a closer look

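CTCFL was also read in barcodes that were not called as cells. In 617 barcodes of the fully resistant library with 1000 to 4999 UMIs it was at 105 CPM (88.7 to 124, from 141 UMIs of 1338759). The corresponding barcodes of the sensitive library had 0.780 CPM (0.0198 to 4.35, from 1 UMI), and those of the intermediate resistant library 5.49 CPM (2.21 to 11.3, from 7 UMIs). The result is listed because the signal lay outside the cells compared and above the level in the DMSO library. CTCF in these barcodes was at 64.0, 54.9 and 32.1 CPM from sensitive to fully resistant.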

How the results depend on the processing

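No direction of a CTCF or CTCFL ratio was reversed by any alternative. No paired analysis was possible because each state had 1 library. CTCFL log2 ratios moved beyond their counting interval in the classes of cells with fewest and most G2 and M phase UMIs, a split chosen after seeing the data: to 6.75 and 9.09 for fully resistant over sensitive, 1.91 and 3.52 for intermediate resistant over sensitive and 4.85 and 5.57 for fully over intermediate resistant, which TMM factors put at 5.09. CTCF was at -0.66 (TMM) and -0.64 (median ratios) for fully resistant over sensitive. For intermediate resistant over sensitive it was at -0.44 without mitochondrially encoded and ribosomal protein genes, -0.43 with TMM and -0.41 in the class with most G2 and M phase UMIs. For fully over intermediate resistant it was at -0.18, -0.23, -0.15 in the same settings and -0.17 with median ratios. Without thinning the shares of cells from sensitive to fully resistant were 0.997%, 5.15% and 79.0% for CTCFL and 62.5%, 49.9% and 49.6% for CTCF. At 10000 UMIs they were 0.558%, 3.23% and 66.5% for CTCFL and 46.8%, 36.5% and 35.0% for CTCF, and 1 of 2 random draws gave 46.3% for CTCFL in fully resistant cells. Co-detection ratios stayed within their interval in 16 of 16 alternatives. Genes past 2-fold, higher and lower, numbered 660 and 718 (fully resistant over sensitive), 227 and 458 (intermediate over sensitive) and 549 and 376 (fully over intermediate) at 5 CPM or more, and 3139 and 2606, 2214 and 1896, and 2400 and 2240 without a minimum. Without mitochondrially encoded and ribosomal protein genes, 496 were lower in fully resistant than in sensitive cells, 144 higher in intermediate resistant than in sensitive cells and 281 lower in fully than in intermediate resistant cells. Apart from settings that change the depth or the cells and genes compared, the cause was not tested. The 55 CTCFL UMIs in sensitive cells limit every ratio against that library.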

Other observations

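S phase UMIs, over 40 genes with limits of 8 and 14 UMIs per thinned cell, gave a smaller gradient than G2 and M phase UMIs. CTCFL in fully resistant cells was at 116, 143 and 130 CPM in cells of low, middle and high S phase count, so the middle class was highest. CTCF was at 36.0, 47.6 and 53.4 CPM in the same cells, a ratio of high to low of 1.48. In sensitive cells this ratio was 1.198, from 61.2 to 73.3 CPM, and in intermediate resistant cells 1.30, from 40.1 to 52.1 CPM.

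Over 5 equal groups of cells ordered by depth, CTCFL in the fully resistant library was at 140, 127, 120, 119 and 138 CPM from shallow to deep cells. Its level was thus highest at both ends. CTCF in the same groups was at 46.0, 42.7, 40.9, 45.7 and 49.2 CPM, lowest in the middle group, whereas CTCFL was lowest in the next deeper one. The CTCFL intervals of the middle and the next deeper group overlapped (115 to 125 and 114 to 123 CPM).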
